A study of Mus musculus with 18 samples.

Results

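Epithelial polarity and tight junction genes were followed in the lacrimal gland (LG) as 9 genes of the 54232 in the count table: Patj, Pllp, Crb3, Tjp1, Ocln, Cldn3, Cldn4, Cldn10 and F11r. They were picked by gene name, and the set was selected on a measured value, a fall of Patj and Pllp with time in NOD.H-2b, with the 7 other genes added for comparison. Levels and changes of Patj and Pllp are therefore given as a description with no test, and only the other 7 are tested. The file spells Patj by its older symbol Inadl, so 8 of the 9 matched by the file's symbol and all 9 by Ensembl identifier. Bulk RNA-seq was performed on LGs of 18 male mice, 3 in each group, at 2 months (2M), 4M and 6M. BALB/c mice (BALB/cJ) served as controls, and NOD.H-2b mice (NOD.B10Sn-H2b/J), in which the H2b haplotype of C57BL/10SnJ replaces the NOD haplotype of the MHC region, model primary Sjögren's syndrome without diabetes. The labels name no treatment. The strains differ in genetic background as well as in disease, and both effects cannot be told apart in a strain difference. Total counts per mouse ranged from 49480781 to 103936830.

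Epithelial cells of an exocrine gland keep an apical face toward the lumen and a basolateral face toward the stroma, and tight junctions seal the space between neighbouring cells at the border of both faces. Claudins and occludin are the membrane proteins of the seal, F11r encodes the junctional adhesion molecule JAM-A, and Tjp1 encodes ZO-1, which ties these proteins to actin. The Crumbs complex marks the apical membrane: Crb3 is its transmembrane protein in epithelia, and Patj is its multi-PDZ scaffold. Pllp encodes plasmolipin, a proteolipid of the MAL family known from myelin and from the apical membrane of epithelia. In the LG, tears are secreted by acinar cells and carried by ducts, and both are polarized epithelia.

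The promoters of 4 members are shown because the results turn on them: Patj and Pllp, the pair on which the set was selected, and the neighbouring genes Cldn3 and Cldn4 of chromosome 5, which differed between the strains in opposite directions at 4M and 6M. The bases are those of RefSeq on GRCm38.p6, the reference mouse and neither of the strains studied, written from 5′ to 3′ on the strand of the gene and cut so that at most 30 bases of an annotated exon are included. Capitals mark the E-box CAGGTG on either strand (CACCTG when read on the other strand), a sequence bound by the Snail and ZEB repressors of epithelial genes.
Patj, chr4:98395576-98395814, plus strand: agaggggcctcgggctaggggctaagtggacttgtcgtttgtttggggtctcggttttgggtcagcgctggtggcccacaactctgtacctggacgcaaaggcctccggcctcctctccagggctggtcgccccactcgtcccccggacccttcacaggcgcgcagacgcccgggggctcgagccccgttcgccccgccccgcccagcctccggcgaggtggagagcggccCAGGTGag
Pllp, chr8:94696249-94696492, minus strand: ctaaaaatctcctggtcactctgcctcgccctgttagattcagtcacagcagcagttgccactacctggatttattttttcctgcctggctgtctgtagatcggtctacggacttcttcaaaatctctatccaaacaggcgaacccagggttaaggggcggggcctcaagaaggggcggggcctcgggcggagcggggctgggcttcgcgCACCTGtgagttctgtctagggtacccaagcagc
Cldn4, chr5:134946935-134947184, minus strand: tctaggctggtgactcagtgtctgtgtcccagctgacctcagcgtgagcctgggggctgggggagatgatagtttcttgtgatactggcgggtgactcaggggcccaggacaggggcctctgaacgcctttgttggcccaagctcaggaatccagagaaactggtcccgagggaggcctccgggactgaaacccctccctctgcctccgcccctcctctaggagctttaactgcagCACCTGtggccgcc
Cldn3, chr5:134985964-134986213, plus strand: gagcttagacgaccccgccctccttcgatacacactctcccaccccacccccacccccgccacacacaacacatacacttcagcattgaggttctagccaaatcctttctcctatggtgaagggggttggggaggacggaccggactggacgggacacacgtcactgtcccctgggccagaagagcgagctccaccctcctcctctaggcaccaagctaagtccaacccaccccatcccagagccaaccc

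RefSeq gave 14 windows of 250 bases before a transcription start for the 9 members. CAGGTG, searched on both strands, was absent from the window of Cldn3 and was found in 7 of these windows and in at least 1 window of 6 members (Patj, Pllp, Crb3, Ocln, Cldn4 and F11r), beside 17.2% of all 32817 windows and 19.4% of 26994 genes. The 2 windows of Crb3 overlap and hold the same matches, so they are not independent. A start given by RefSeq can lie inside the gene as annotated by GENCODE. By that annotation the matches of Patj, Crb3 and Ocln lay within the gene, and that of Pllp lay across its first base. The Grainyhead motif AACNGGTT was in none of the members' windows and in 1.78% of all windows. TGACGTCA and TATAAA, searched as controls on both strands, were also in none of them, and in 1.55% and 12.4% of all windows. A match is a description of letters and not of binding, and the absence of one says only that the letters are not in that window.

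The genes lie on 8 chromosomes of GRCm38: Patj at chr4:98395785-98719603 on the plus strand with 13 annotated transcripts, Pllp at chr8:94674894-94696278 on the minus strand, Crb3 at chr17:57059105-57065918, Tjp1 at chr7:65296165-65527781, F11r at chr1:171437535-171464603, Ocln at chr13:100496507-100552718, Cldn10 at chr14:118787908-118875489, and Cldn4 and Cldn3 at chr5:134945119-134946934 and chr5:134986214-134987472. Exons of Crb3 overlap those of Dennd1c, and the strand setting of the counting is not stated, so that reads of the overlap cannot be assigned with certainty. Dennd1c had 0.773 ± 0.221 CPM in BALB/c versus 3.49 ± 1.57 in NOD.H-2b at 2M, and 0.821 ± 0.243 against 17.2 ± 4.61 at 6M (SD, n = 3), the opposite direction to Crb3. The genes that overlap Cldn3 (Wbscr25) and Pllp (Gm45767) stayed under 0.8 CPM in the mean of every group.

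**Figure D1:**
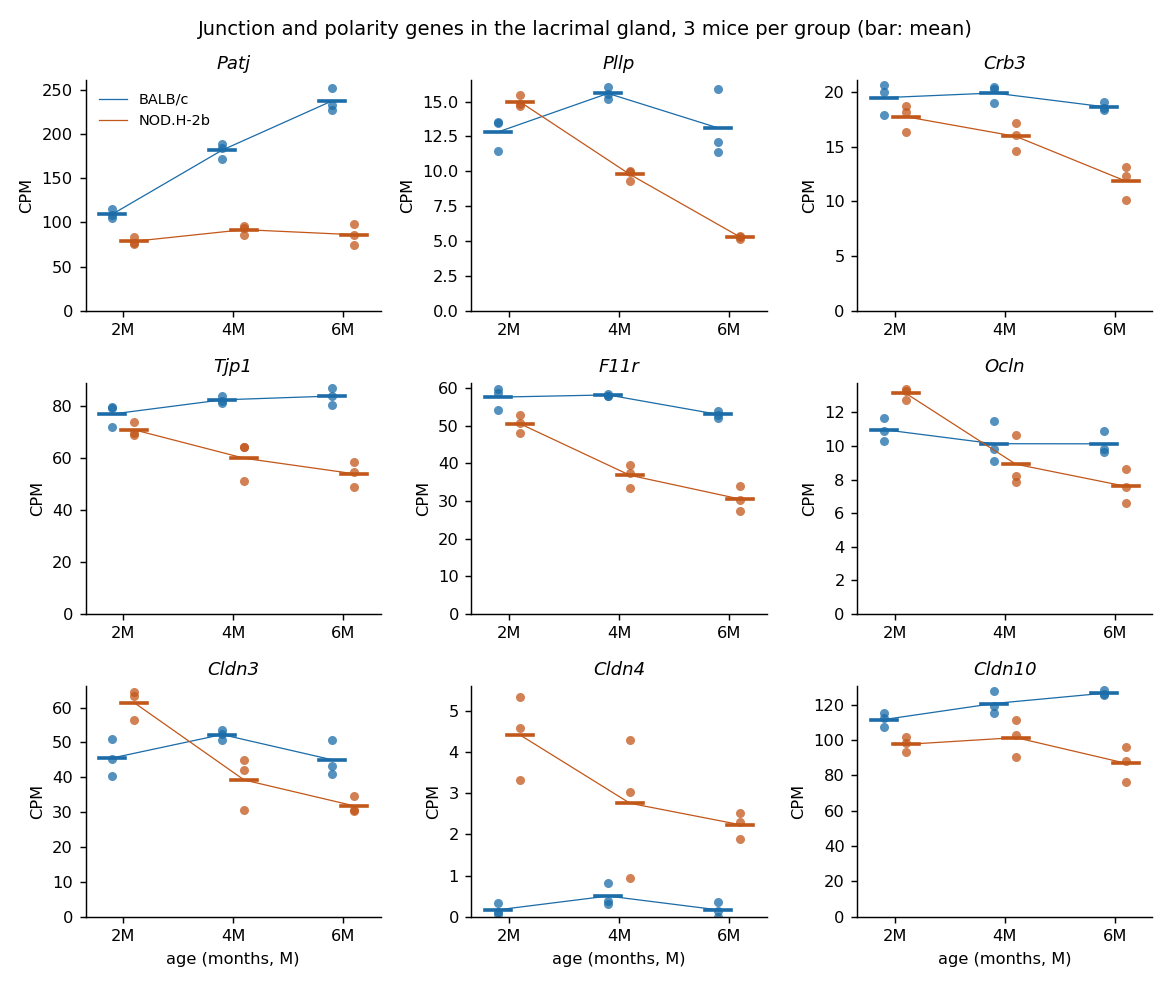
Level of each of the 9 genes in each mouse, in CPM (counts scaled to library size, linear axis from 0) against age, with BALB/c in blue and NOD.H-2b in orange. Points are mice, thick bars are means of 3 mice, and thin lines join the means. Patj climbs from a mean of 109 to 238 CPM in BALB/c and stays between 78.6 and 91.8 in NOD.H-2b, whereas Pllp goes from 15.0 to 5.29 CPM in NOD.H-2b.

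Patj did not follow the description by which it was picked. In BALB/c its level, in CPM normalized by the TMM method of edgeR, came to 105, 108 and 115 at 2M, 184, 189 and 172 at 4M and 233, 253 and 227 at 6M in the 3 mice of each age. In NOD.H-2b it was 76.2, 75.7 and 83.9 at 2M, 86.1, 93.1 and 96.2 at 4M and 74.5, 85.7 and 97.9 at 6M. Every BALB/c mouse was above every NOD.H-2b mouse of its age, and within BALB/c the ranges of the ages did not overlap, while the range of NOD.H-2b at 6M covered that of 2M. Patj was thus 2.18-fold higher at 6M than at 2M in BALB/c (log2 change 1.12, SE 0.083) and 1.09-fold higher in NOD.H-2b (0.13, SE 0.082). The level in NOD.H-2b was 1.35-fold lower than in BALB/c at 2M, 1.97-fold lower at 4M and 2.70-fold lower at 6M (log2 difference -0.43, -0.98 and -1.43, SE 0.057, 0.070 and 0.106). On this scale the widening of the strain difference lay in the BALB/c mice.

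Pllp went the way it was picked for. The 3 mice of each age in NOD.H-2b had 14.8, 15.5 and 14.7 CPM at 2M, 9.31, 9.97 and 10.1 at 4M and 5.31, 5.39 and 5.17 at 6M. The BALB/c mice had 13.5, 13.5 and 11.5 at 2M, 15.2, 15.5 and 16.0 at 4M and 11.4, 12.1 and 15.9 at 6M, where the last mouse stands apart from the other 2. Without it the strain difference at 6M was -1.12 on the log2 scale instead of -1.27. NOD.H-2b mice were all above BALB/c at 2M and all below at 4M and 6M. Between 2M and 6M Pllp was 0.353 of its earlier level in NOD.H-2b (log2 change -1.50, SE 0.105) and 1.02 of it in BALB/c (0.03, SE 0.102), and the strain difference passed from 0.27 at 2M to -0.67 at 4M and -1.27 at 6M (SE 0.083, 0.089 and 0.135).

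The summed level of the 5 acinar markers (Aqp5, Car6, Chrm3, Slc12a2 and Lpo) had medians of 10197, 9063 and 9024 CPM in BALB/c versus 6684, 4468 and 3687 in NOD.H-2b at 2M, 4M and 6M. The sum was thus lower in NOD.H-2b at each age and decreased with age in that strain. Lpo and Car6 made up most of it, with a mean log2 CPM of 12.9 and 9.48 at 2M, against 7.13 for Aqp5, 6.06 for Slc12a2 and 5.22 for Chrm3. Singly, Car6, Lpo, Chrm3 and Slc12a2 were called lower in NOD.H-2b at each age, and Aqp5 only at 6M (log2 difference -0.04, -0.09 and -0.35). From 2M to 6M in NOD.H-2b Slc12a2 had a log2 change of 0.03 (SE 0.087), and Lpo, Car6, Aqp5 and Chrm3 had -0.96, -0.76, -0.54 and -0.40. Pllp shared the direction with age in NOD.H-2b but not the strain difference at 2M, where it was higher. The part of acinar RNA in these values was not tested.

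In whole glands, fewer cells of a type and less RNA per cell cannot be told apart. An epithelial reference of 11 genes (Epcam, Krt7, Krt8, Krt18, Krt19, Spint1, Spint2, Esrp1, Esrp2, Ap1m2 and Rab25), all detected, summed to 1300 to 1319 CPM in BALB/c versus 1262 to 1412 in NOD.H-2b at 2M, 1332 to 1393 against 915 to 1175 at 4M, and 1275 to 1338 against 782 to 980 at 6M. The strains thus overlapped at 2M and no longer did at 4M and 6M. Over the same ages Ptprc, which encodes the leukocyte antigen CD45, went from a median of 66.8 CPM to 179 and 279 in NOD.H-2b and from 7.40 to 11.9 and 11.6 in BALB/c. The summed level of 5 T cell markers, genes of the T cell receptor complex and its signalling, had medians of 12.3, 45.4 and 63.1 CPM in NOD.H-2b, and stayed under 4 CPM in every BALB/c mouse. Medians of the plasma cell markers passed from 144 to 674 CPM in NOD.H-2b and from 35.6 to 178 in BALB/c between 2M and 6M, those of macrophages from 110 to 143 and from 36.6 to 38.8, and those of endothelial cells from 98.9 to 119 and from 67.2 to 63.0. The endothelial markers did not move together in NOD.H-2b. Pecam1 had a log2 change of 1.37 over these ages, Cdh5 0.30 and Vwf 0.02, and Kdr, Tek and Emcn had -0.14, -0.24 and -0.56. Myoepithelial medians lay between 118 and 148 CPM in all groups. Markers of skeletal muscle, salivary gland and adipocytes stayed under 5 CPM in sum in all mice. Each strain difference below was therefore computed on a whole-library scale (the scale of the tests unless stated) and on an epithelial scale, on which the geometric mean of 10 reference genes is the same in every mouse. Krt19 was left out of that mean after its values were seen, because it had 2 to 65 counts per mouse and was higher in NOD.H-2b at 2M (log2 difference 1.80, adjusted p = 0.0272) and 6M (1.52, adjusted p = 0.0338). The 10 genes kept were not even either. At 2M Epcam (0.40), Krt7 (0.46), Krt8 (0.42) and Rab25 (0.22) were called higher in NOD.H-2b. Ap1m2 (-0.34) and Esrp2 (-0.19) were called lower, and the others were not called. At 6M the log2 differences of the 10 ran from -0.84 (Esrp2) to -0.03 (Krt7). Where the scale with all 11 genes gives another call for a member, its value is stated. The epithelial scale moved the median log2 difference of all genes from 0.01 to -0.08 at 2M, from 0.00 to 0.33 at 4M and from -0.00 to 0.51 at 6M.

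**Figure D2:**
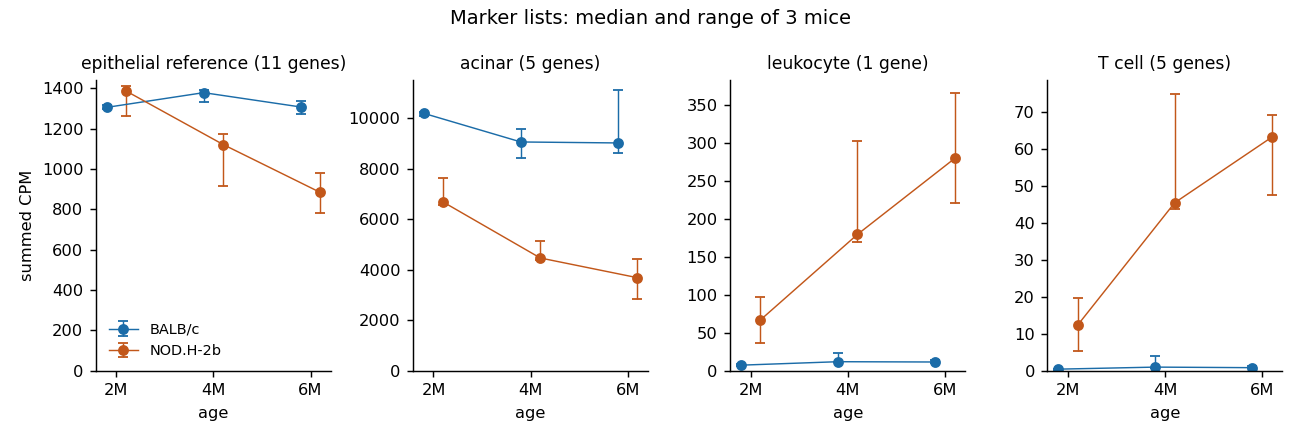
Summed CPM (linear axes from 0) of the epithelial reference, the acinar markers, the leukocyte gene Ptprc and the T cell markers at 2M, 4M and 6M, as the median with the range of 3 mice, BALB/c in blue and NOD.H-2b in orange. In NOD.H-2b the epithelial median passes from 1388 to 885 CPM and the T cell median from 12.3 to 63.1 CPM.

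Relative to the epithelial reference, Patj and Pllp still stood below BALB/c at 6M. On that scale the log2 difference of Patj was -0.53, -0.66 and -0.93 at the 3 ages, and that of Pllp was 0.18, -0.34 and -0.76. Measured against the mean log2 level of the 10 genes, Patj passed from 0.49 ± 0.075 to 1.62 ± 0.092 in BALB/c and from -0.04 ± 0.076 to 0.68 ± 0.15 in NOD.H-2b between 2M and 6M (SD, n = 3). By the same measure Pllp stayed at -2.60 ± 0.13 and -2.57 ± 0.26 in BALB/c and passed from -2.42 ± 0.13 to -3.33 ± 0.15 in NOD.H-2b.

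At 2M, 4 of the 7 tested members differed between the strains, with Cldn10 lower and Cldn3, Ocln and Cldn4 higher in NOD.H-2b. Of all 17200 genes tested at this age, 17.2% were called lower and 22.5% were called higher by edgeR's quasi-likelihood test, with an adjusted p under 0.05. Cldn3, which encodes a sealing claudin of many glandular epithelia, had 45.3, 40.2 and 51.0 CPM in BALB/c versus 64.5, 56.4 and 63.3 in NOD.H-2b, with no overlap between the strains. It was 1.39-fold higher (log2 difference 0.47, SE 0.085, adjusted p = 0.00166). Ocln, which encodes occludin, was 1.23-fold higher (0.30, SE 0.077, adjusted p = 0.00879), with 10.3 to 11.7 CPM in BALB/c and 12.7 to 13.4 in NOD.H-2b. Cldn10, whose product forms ion-selective pores, was 1.11-fold lower (-0.15, SE 0.049, adjusted p = 0.0288), and this call was lost without BALB/c 2M replicate 1 or 3 or NOD.H-2b 2M replicate 3 (adjusted p from 0.0633 to 0.108). Crb3 and Tjp1 had log2 differences of -0.09 and -0.08 and overlapped between the strains. F11r was below BALB/c in every mouse but was not called (-0.15, SE 0.056, adjusted p = 0.059), and it was called with DESeq2's size factors (adjusted p = 0.0385). In a fit of all 18 mice Cldn10 and Ocln were not called (adjusted p = 0.064 and 0.0985). On the epithelial scale Cldn3 was higher (0.38, adjusted p = 0.00372), F11r (-0.24, adjusted p = 0.00879) and Cldn10 (-0.24, adjusted p = 0.0148) were lower, and Ocln (0.21), Crb3 (-0.19) and Tjp1 (-0.17) were not called (adjusted p = 0.0866, 0.0757 and 0.058). With Krt19 in the scale, Cldn3 was not called (0.20) and Crb3 (-0.36) and Tjp1 (-0.35) were called lower.

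Cldn4 was the member with the largest strain difference. It was higher in NOD.H-2b at each age, like Cldn3 and Ocln at 2M and opposite to the other called members at 4M and 6M. Its product is a sealing claudin known from ducts of exocrine glands. It had 6, 18 and 4 counts in the BALB/c mice of 2M and 325, 219 and 291 in the NOD.H-2b mice, or 0.115, 0.323 and 0.0705 CPM against 5.34, 3.33 and 4.57. At 4M the counts were 21, 15 and 55 in BALB/c versus 63, 278 and 151 in NOD.H-2b, and at 6M they were 34, 0 and 6 against 192, 132 and 108. The CPM of NOD.H-2b exceeded that of BALB/c in every mouse at each age, although the NOD.H-2b mouse with 63 counts was close to the highest BALB/c mouse. The log2 difference was 4.72 (SE 0.41, adjusted p = 2.25e-05) at 2M, a 26.4-fold higher level, 2.42 (SE 0.64, adjusted p = 0.0223) at 4M and 3.53 (SE 0.63, adjusted p = 0.00184) at 6M. At 4M the call was lost without BALB/c 4M replicate 1 or 2 or NOD.H-2b 4M replicate 3 (adjusted p from 0.0561 to 0.0953), and also without the filter on low counts (adjusted p = 0.0913). On the epithelial scale Cldn4 was higher at all 3 ages, with log2 differences of 4.62, 2.69 and 4.07. Of the markers of basal and ductal cells, Wfdc2 was also higher in NOD.H-2b at 2M (2.30, adjusted p = 0.0109) and 6M (1.88, adjusted p = 0.00814), and Krt5 was lower (-0.55 and -0.76, adjusted p = 0.0005 and 0.000542). At 4M Wfdc2 was not called (0.55, adjusted p = 0.377) and Krt5 was lower (-0.89, adjusted p = 9.07e-05). Wfdc2 was low throughout, with a mean log2 CPM of -1.62 at 2M, -1.47 at 4M and -1.26 at 6M. The whole list of markers (Krt5, Krt15, Krt17 and Wfdc2) summed to medians of 23.1 CPM in BALB/c and 17.1 in the NOD.H-2b mice at 2M, and of 25.7 and 15.5 at 6M. Their part in the level of Cldn4 was not tested.

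**Figure D3:**
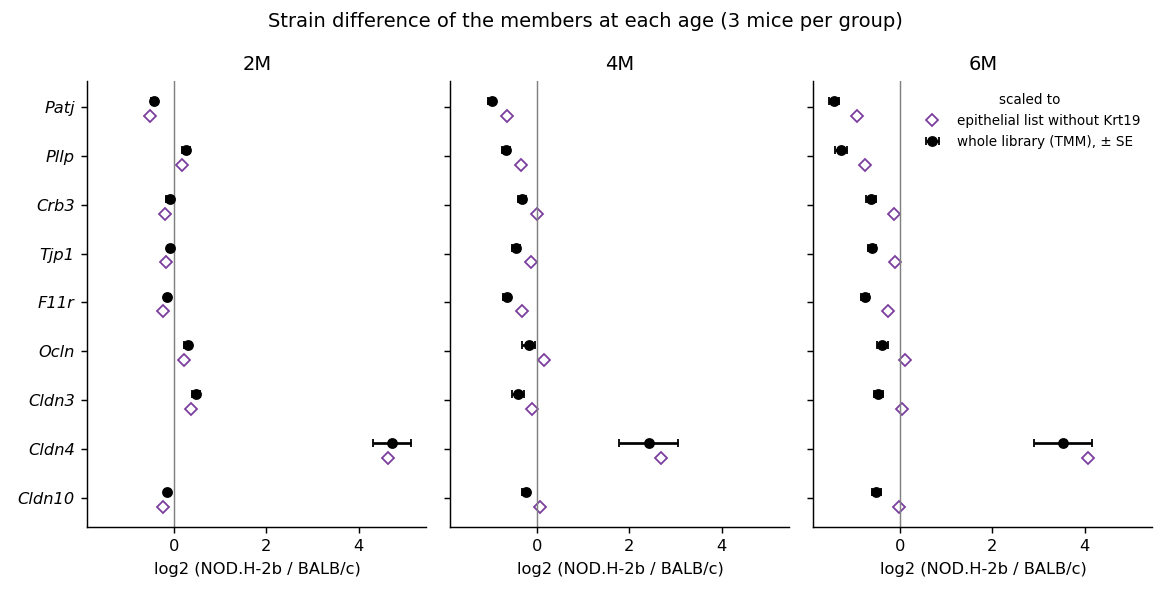
Log2 difference NOD.H-2b over BALB/c of each member at 2M, 4M and 6M, 3 mice per group. Filled circles with SE bars are scaled to the whole library, and open diamonds, drawn without error, are scaled to the 10 epithelial reference genes without Krt19. At 6M all members but Cldn4 (3.53) lie between -1.43 and -0.38 on the whole-library scale, and between -0.93 and 0.12 on the epithelial scale, where Ocln and Cldn3 change sign.

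At 4M, 5 of the 7 tested members were called lower in NOD.H-2b and 1, Cldn4, higher, beside 19.2% and 23.4% of all genes. F11r had 58.0, 58.1 and 58.6 CPM in BALB/c versus 33.6, 37.4 and 39.6 in NOD.H-2b and was 1.58-fold lower (log2 difference -0.66, SE 0.074, adjusted p = 0.000111). Tjp1 was 1.37-fold lower (-0.45, SE 0.088, adjusted p = 0.00235), Crb3 1.24-fold (-0.31, SE 0.088, adjusted p = 0.0163), Cldn3 1.33-fold (-0.41, SE 0.13, adjusted p = 0.0315) and Cldn10 1.19-fold (-0.25, SE 0.084, adjusted p = 0.0388). Ocln had a log2 difference of -0.18 (adjusted p = 0.356), with overlapping mice. The calls of Crb3, Cldn3 and Cldn10 did not hold in every fit that left out 1 mouse. Crb3 lost its call without BALB/c 4M replicate 1 or 2, Cldn3 without any BALB/c 4M mouse or NOD.H-2b 4M replicate 3, and Cldn10 without any BALB/c 4M mouse or NOD.H-2b 4M replicate 1 or 3, with adjusted p from 0.0542 to 0.143. Cldn10 was not called among genes with at least 10 counts in every sample (adjusted p = 0.0589). F11r was lower on the epithelial scale as well (-0.33, adjusted p = 0.0256), whereas Tjp1 and Cldn3 were not called (-0.14 and -0.10), and Crb3 (0.01), Cldn10 (0.07) and Ocln (0.15) changed sign without being called.

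At 6M, 6 of the 7 tested members were called lower in NOD.H-2b and Cldn4 higher, beside 25.8% and 28.6% of all genes. The mice of both strains did not overlap for any of the 7. Overlap was not counted over all genes, so this describes these genes only. F11r had 52.2, 53.0 and 54.0 CPM in BALB/c versus 27.4, 34.0 and 30.2 in NOD.H-2b and was 1.70-fold lower (log2 difference -0.76, SE 0.089, adjusted p = 6.18e-05). Tjp1, with 80.7 to 87.2 CPM in BALB/c and 48.8 to 58.5 in NOD.H-2b, was 1.52-fold lower (-0.60, SE 0.085, adjusted p = 0.000230). Crb3, the transmembrane partner of the Crumbs complex, had 18.4 to 19.1 CPM against 10.2 to 13.1 and was 1.54-fold lower (-0.62, SE 0.11, adjusted p = 0.000736). Among the claudins, Cldn10 was 1.42-fold lower (-0.51, SE 0.092, adjusted p = 0.00107) and Cldn3 1.38-fold lower (-0.46, SE 0.096, adjusted p = 0.00244). Ocln was 1.30-fold lower (-0.38, SE 0.12, adjusted p = 0.0227), a call lost without BALB/c 6M replicate 1 or 3 or NOD.H-2b 6M replicate 1 or 2 (adjusted p from 0.0502 to 0.0886). None of the 6 reached a 2-fold difference. Of the 6, F11r alone was lower on the epithelial scale (-0.26, adjusted p = 0.0185). Tjp1 (-0.10, adjusted p = 0.262), Crb3 (-0.12, adjusted p = 0.386) and Cldn10 (-0.01, adjusted p = 0.903) were not called, nor were Cldn3 (0.04, adjusted p = 0.775) and Ocln (0.12, adjusted p = 0.485), whose sign changed. With Krt19 in the scale, Tjp1 was called lower (-0.30, adjusted p = 0.0207), and Cldn3 (-0.16) and Ocln (-0.08) had negative values.

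The question whether these genes changed differently with age in the strains was put to the difference between the strains in the change from 2M to 6M, in a fit of all 18 mice. Here 6 of the 7 tested members were lower, that is, fell more or rose less in NOD.H-2b, and none was higher, beside 9.09% lower and 7.04% higher of all 19117 genes. The largest difference was that of Cldn3 (-0.93, SE 0.17, adjusted p = 0.00302), which was 0.988 of its level of 2M in BALB/c and 0.518 of it in NOD.H-2b at 6M. Ocln (-0.68, SE 0.17, adjusted p = 0.0137) was 0.922 and 0.577 of its earlier level, and F11r (-0.61, SE 0.10, adjusted p = 0.00182) 0.920 and 0.603. Crb3 (-0.52, SE 0.13, adjusted p = 0.0121) and Tjp1 (-0.52, SE 0.11, adjusted p = 0.00682) followed, with 0.667 and 0.761 of the level of 2M left in NOD.H-2b. Cldn10 differed least (-0.35, SE 0.11, adjusted p = 0.0424), and its call was lost without any of 7 single mice (adjusted p from 0.0517 to 0.111), with DESeq2's size factors (0.0545) and without the filter (0.0578). Cldn4, at 0.508 of its level of 2M in NOD.H-2b, had the widest error (-1.20, SE 1.06, adjusted p = 0.478). For Patj and Pllp the same difference was -0.99 (SE 0.12) and -1.53 (SE 0.15). On the epithelial scale, which moved the median of all genes to 0.56, none of the 7 was called, beside 0.874% lower and 42.5% higher of all genes. Crb3 (0.07), Tjp1 (0.07) and Cldn10 (0.23) changed sign, and Cldn3 (-0.34), Ocln (-0.09) and F11r (-0.02) stayed negative.

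**Figure D4:**
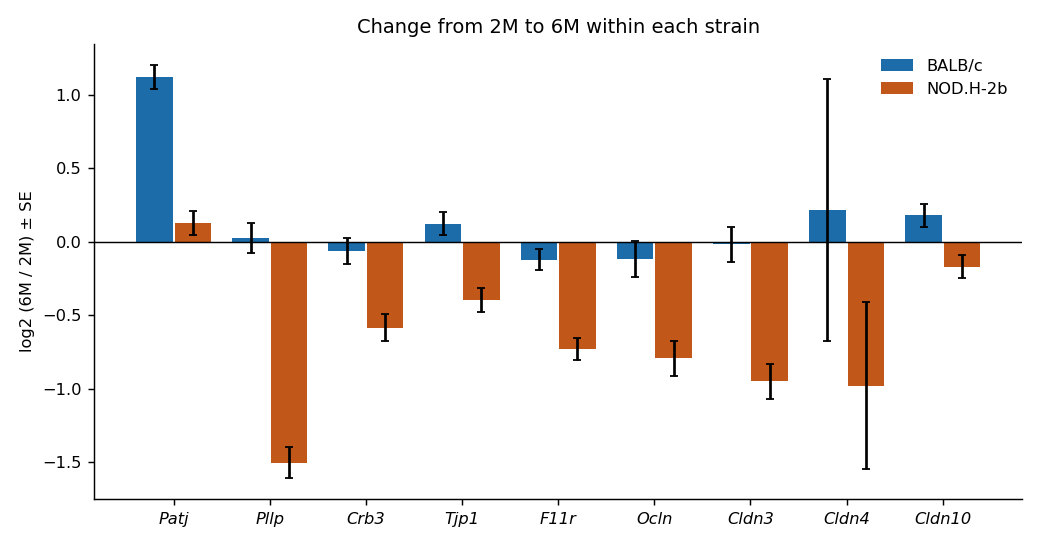
Log2 change from 2M to 6M of each member within BALB/c (blue) and NOD.H-2b (orange), scaled to the whole library, with SE bars from the fit of 18 mice. Patj stands alone with 1.12 in BALB/c versus 0.13 in NOD.H-2b, and all other members have a negative bar in NOD.H-2b, from -0.17 (Cldn10) to -1.50 (Pllp). On the epithelial scale 6 tested members were no longer called between the strains.

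The change was also read by steps of age. From 2M to 4M in NOD.H-2b 3 of the 7 fell, Cldn3 (-0.65, SE 0.13, adjusted p = 0.0215), F11r (-0.46, SE 0.076, adjusted p = 0.00959) and Ocln (-0.56, SE 0.13, adjusted p = 0.0233), and none rose, beside 5.48% and 10.3% of all genes. Cldn3 lost its call without NOD.H-2b 2M replicate 1 or 3 and Ocln without any of the 3 mice of 2M. On the epithelial scale Cldn3 was lower (-0.39, adjusted p = 0.0436), and F11r (-0.18, adjusted p = 0.234) and Ocln (-0.28, adjusted p = 0.241) were not called, beside 0.625% lower and 13.6% higher of all genes. None of the 7 was called from 2M to 4M in BALB/c, where 5.01% of all genes fell and 6.10% rose. With all 11 genes in the epithelial scale, Ocln (-0.48, adjusted p = 0.00149), F11r (-0.35, adjusted p = 0.0105) and Crb3 (-0.32, adjusted p = 0.0221) were called lower in this step. Cldn4 was called higher (1.20, adjusted p = 0.0315), beside 47.4% lower and 3.37% higher of all genes on that scale. From 4M to 6M none was called in BALB/c (0.132% of all genes lower and 0.174% higher) or in NOD.H-2b (0% and 0.00555%), a step in which 2583 and 2490 genes had an unadjusted p under 0.05. Crb3 (-0.42), Cldn3 (-0.29) and F11r (-0.26) had negative values in this step in NOD.H-2b, where a fit of all 18 mice called Crb3 (adjusted p = 0.0185) and F11r (adjusted p = 0.047) lower. The steps were not tested against each other. Pllp had a log2 change of -0.87 (SE 0.11) after -0.62 (SE 0.087) between 2M and 4M.

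Per kilobase of exon, the order of the levels in BALB/c at 2M was Cldn10 (43.1 ± 1.62 CPM per kb), Cldn3 (36.2 ± 4.28), F11r (21.7 ± 1.11), Crb3 (12.5 ± 0.918), Tjp1 (9.87 ± 0.566), Patj (8.35 ± 0.405), Pllp (6.16 ± 0.566), Ocln (2.60 ± 0.163) and Cldn4 (0.0933 ± 0.0743; SD, n = 3). The mice of neighbours in this order did not overlap. In NOD.H-2b at 6M the order was kept, but Crb3 (7.57 ± 0.972), Tjp1 (6.91 ± 0.622) and Patj (6.58 ± 0.894) lay within each other's spread. The length of the longest transcript in place of all exons raised Patj to 14.9 CPM per kb in BALB/c at 2M, above Tjp1 (10.9).

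The members were also read within a panel of 79 junction and polarity genes chosen by role. Without Patj and Pllp it holds 77 genes, of which 65 to 68 passed the filter on low counts in each comparison. At 2M, 14 of the 67 tested (20.9%) were below BALB/c and 21 (31.3%) above it, with a median log2 difference of 0.03, beside 17.2% and 22.5% of all genes. At 4M, 31 of 67 (46.3%) were lower and 5 (7.46%) higher (median -0.29), beside 19.2% and 23.4%, and at 6M 35 of 65 (53.8%) were lower and 7 (10.8%) higher (median -0.37), beside 25.8% and 28.6%. The split on the epithelial scale was 21 lower and 15 higher at 2M, beside 23% and 18% of all genes, 8 and 14 at 4M, beside 5.57% and 35%, and 8 and 24 at 6M, beside 6.38% and 55.1%. It depended on Krt19, with which it was 31 lower and 9 higher at 2M, beside 37.9% and 14.5%, and 15 and 11 at 6M, beside 9.63% and 39.9%. In the change with age 31 of 68 panel genes (45.6%) were lower and 1 higher for NOD.H-2b on the whole-library scale, beside 9.09% and 7.04%. On the epithelial scale 2 were lower and 18 higher, beside 0.874% and 42.5%. Between 2M and 4M 16 of 66 fell and 1 rose in NOD.H-2b, beside 5.48% and 10.3% of all genes. In BALB/c 1 and 7 of 66 did so, beside 5.01% and 6.1%. The count of 16 was smaller in some fits that left out 1 mouse, with 3 left without NOD.H-2b 2M replicate 1 or replicate 3 and 10 without NOD.H-2b 4M replicate 2. The shares of all genes in those fits are not given here. On the epithelial scale 1 was left, beside 0.625% of all genes. From 4M to 6M the panel had 1 lower call in BALB/c and none in NOD.H-2b, beside 0.132% and 0% of all genes.

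The roles are to be read against 25.8% lower and 28.6% higher of all genes at 6M on the whole-library scale. On the epithelial scale these shares were 6.38% and 55.1%, or 9.63% and 39.9% with Krt19 in it. The tight junction plaque list holds 10 genes, among them the scaffolds Tjp1, Tjp3 and Magi1 as well as Ybx3 and Sympk. It had 7 genes lower and none higher at 6M (median log2 difference -0.52), and 4 lower and 4 higher on the epithelial scale (-0.02). The tight junction membrane proteins had 9 lower and 3 higher of 22 tested (median -0.31), and 1 lower and 9 higher on the epithelial scale (0.19), or 3 and 4 with Krt19 in that scale (-0.01). In the Crumbs complex, without Patj, 3 of 6 were lower (median -0.53), and none was lower and 1 higher on the epithelial scale (-0.04). Among the 3 lower genes was Mpp5, which encodes Pals1, the partner that joins Crb3 and Patj (-0.45, SE 0.095, adjusted p = 0.00293). The Par complex had 4 lower and 1 higher of 8, and 1 lower and 2 higher on the epithelial scale. The Scribble group, which marks the basolateral side, turned from 4 lower of 6 to none lower and 3 higher. Adherens junction genes had 6 lower and 2 higher of 10, and 1 lower and 4 higher on the epithelial scale, or 4 and 2 with Krt19. Cdh1, which encodes E-cadherin, was higher at 2M (0.74, SE 0.061, adjusted p = 3.40e-06) and had -0.07 at 6M (adjusted p = 0.589) on the whole-library scale.

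**Figure D5:**
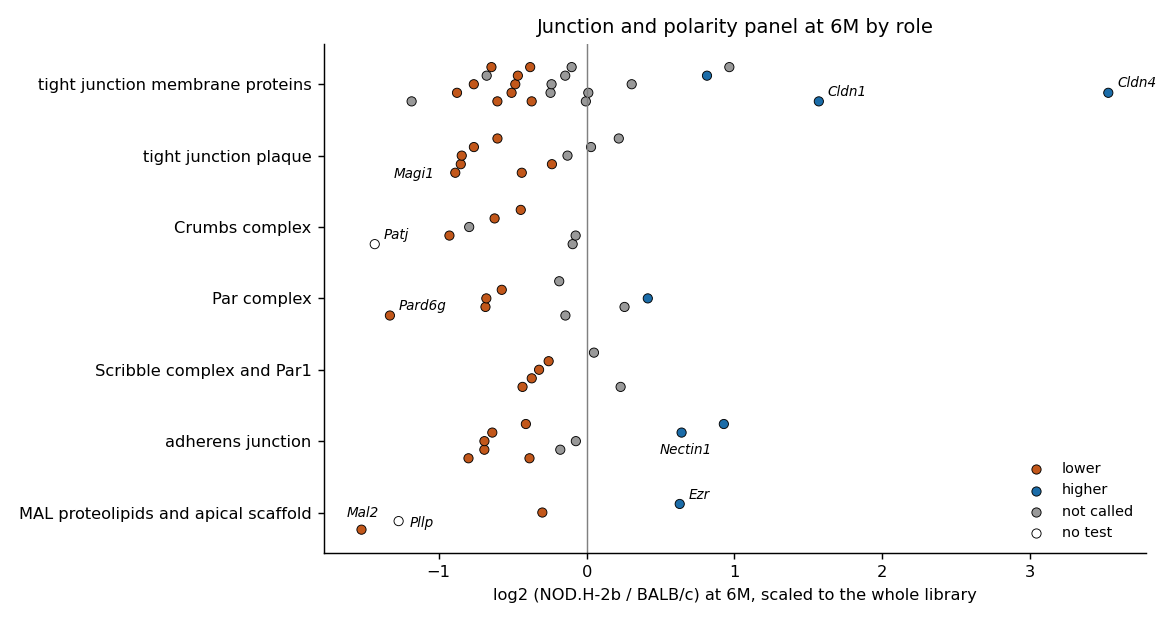
Log2 difference NOD.H-2b over BALB/c at 6M of each panel gene that passed the filter on low counts, by role, scaled to the whole library. Orange points were called lower, blue points higher, grey points were not called, and the open points of Patj and Pllp had no test. Of 65 tested genes 35 are lower and 7 higher, beside 25.8% and 28.6% of all genes. On the epithelial scale 8 are lower and 24 higher, beside 6.38% and 55.1%.

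Among called panel genes above a floor of 1 in mean log2 CPM, those furthest below BALB/c at 6M were Mal2 (-1.52, SE 0.27, adjusted p = 0.000952), a MAL family proteolipid of apical transport like Pllp, Pard6g (-1.33, SE 0.18, adjusted p = 0.000156), a Par6 subunit, and Magi1 (-0.89, SE 0.11, adjusted p = 0.000112), a plaque scaffold. Mal2 averaged 3.16 ± 0.942 CPM in BALB/c versus 1.07 ± 0.223 in NOD.H-2b (SD, n = 3). Furthest above, over the same floor, were Cldn1 (1.57, SE 0.18, adjusted p = 6.65e-05), Nectin1 (0.64, SE 0.11, adjusted p = 0.000679), an adherens junction receptor, and Ezr (0.63, SE 0.15, adjusted p = 0.00572), which links the apical membrane to actin and is also expressed by lymphocytes. These 6 genes kept their direction and call on the epithelial scale. In the change with age from 2M to 6M, Tjp3, which encodes ZO-3 (-1.10, SE 0.17, adjusted p = 0.00131), Cldn3 and Cldn8 (-0.92, SE 0.15, adjusted p = 0.00157) were furthest below for NOD.H-2b over that floor, and Ezr was the 1 gene above (0.68, SE 0.19, adjusted p = 0.0231). Tjp3 stayed called on the epithelial scale and Cldn8 did not (-0.33, adjusted p = 0.209). The call of Ezr was lost without any of 6 single mice.

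Known regulators of epithelial junction genes were counted in the same way. Of 7 activators 6 passed the filter at 6M, and 5 of them were lower in NOD.H-2b and none higher, beside 25.8% and 28.6% of all genes. On the epithelial scale 2 were lower and 1 higher, beside 6.38% and 55.1% of all genes. Grhl2, a Grainyhead-like factor that binds junction gene promoters, averaged 66.6 ± 3.33 CPM in BALB/c versus 32.9 ± 1.75 in NOD.H-2b (log2 difference -0.98, SE 0.077, adjusted p = 4.18e-06), and Grhl1 68.7 ± 2.71 and 38.1 ± 3.19 (-0.81, SE 0.080, adjusted p = 2.02e-05; SD, n = 3). Of 6 repressors 5 passed the filter, of which none was lower and 2 were higher, beside the same 28.6% of all genes. On the epithelial scale 3 were higher, beside 55.1% of all genes. The 2 were Zeb1 (2.10, SE 0.13, adjusted p = 1.03e-06) and Zeb2 (1.58, SE 0.14, adjusted p = 2.29e-05). Zeb1 averaged 5.02 ± 0.426 CPM in BALB/c versus 20.9 ± 3.29 in NOD.H-2b. Leukocytes also express Zeb1 and Zeb2, and Ptprc was higher beside them, with medians of 279 against 11.6 CPM at 6M. The cells that carry these transcripts were not identified. Grhl1 and Grhl2 were lower on the epithelial scale too (-0.31 and -0.48). Snai2 was lower at 2M and 4M (-0.72 and -0.95, adjusted p = 0.0331 and 0.0136) and had 0.00 at 6M.

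The genes most like Patj over the 18 mice, of 7929 above a floor of 3 in mean log2 CPM, were Spg21, Lrrc28 and Ggt1, with Pearson correlations of log2 CPM of 0.978, 0.970 and 0.964. Spg21 passed from 25.8 to 33.9 and 40.8 CPM in the mean of BALB/c and stood at 22.2, 24.2 and 23.3 in NOD.H-2b. Most like Pllp were Rhoc, Fam20b and Tmem250-ps, with 0.971, 0.945 and 0.944, and Rhoc passed from 39.1 to 30.9 and 23.5 CPM in NOD.H-2b beside 37.0, 40.8 and 38.4 in BALB/c. With Spearman's correlation, Spg21 and Rhoc were again first, and 1 of the 3 genes was shared for each member. All these correlations come from the same 6 groups of mice and describe a shared pattern only.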

How the data were processed

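RNA of LGs from 18 male mice was depleted of rRNA and sequenced as paired-end reads, which the authors trimmed with cutadapt, aligned to GRCm38 with STAR and counted per Ensembl gene with HTSeq. The deposited counts are raw and are the values used here. A second table holds log2 values that the authors derived from these counts with DESeq2 size factors, and it was used in no result. Versions, annotation release, strand setting and treatment of multi-mapped reads are not given in the sources used here. Positions were read from GENCODE M21, in which 54079 of 54232 genes were found.

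Comparisons of the strains at 1 age, and of consecutive ages in 1 strain, used the 6 mice concerned in edgeR's quasi-likelihood test (edgeR 4.0.16, R 4.3.3) with TMM, filterByExpr and Benjamini-Hochberg adjustment over all genes, and called at an adjusted p under 0.05. The difference in the change from 2M to 6M was tested on all 18 mice. Levels are CPM, and log2 CPM used a prior count of 2. A standard error is the size of a log2 fold change over the root of its F statistic. Depth does not limit the members except Cldn4, and precision is set by 3 mice per group. The members and lists were chosen with earlier results of these data known. The named panel genes are the 3 each way with the largest log2 value among those called at 6M and in the change with age, above a floor of 1 in mean log2 CPM. Mpp5 and Cdh1 were named after their values were seen, as examples of their list. Tested on simulated counts of 17462 genes at 6M, 34% of 1.5-fold and 57.6% of 2-fold changes were recovered, with 8.08% of calls wrong, and in the change with age, on 18506 genes, 17.3% and 39.2%, with 5.17% wrong. Alternatives were DESeq2 size factors, no filter, at least 10 counts in every sample, the Wald test of DESeq2 1.42.0, the replicate number as a block, the epithelial scale (library sizes set by the geometric mean of the 11 reference genes, 0.5 added to each count, and again without Krt19, which was added after seeing the data), other sets of mice, and each mouse left out in turn. Levels of 2 further marker lists are not reported here.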

Additional observations from a re-analysis of the deposited data

Results flagged for a closer look

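The change from 2M to 6M differed between the strains, by the test of that difference, for 10 of the members and named panel genes. Of all 19117 genes, 9.09% were called lower and 7.04% higher by the same test. Tjp3, Cldn8 and Ezr were named from their calls in this test, so their place among the 10 was fixed in advance. On the log2 scale, NOD.H-2b minus BALB/c, the values were -0.93 for Cldn3, -0.68 for Ocln, -0.61 for F11r, -0.52 for Crb3, -0.52 for Tjp1 and -0.35 for Cldn10 among the members, and -1.10 for Tjp3, -0.92 for Cldn8, -0.42 for Magi1 and 0.68 for Ezr in the panel. In NOD.H-2b the median summed level of the epithelial markers passed from 1388 to 885 CPM and that of Ptprc from 66.8 to 279 CPM over the same ages, and on the epithelial scale without Krt19 4 of the 10 (Crb3, Tjp1, Cldn10 and Magi1) changed their sign without being called, whereas Tjp3 and Ezr stayed called. Some of these calls were lost on leaving out 1 mouse, which could be any of 10 for Magi1 (adjusted p up to 0.13), 7 for Cldn10 (up to 0.111) and 6 for Ezr (up to 0.065). The calls of Magi1 and Cldn10 were also lost with DESeq2's size factors (0.0593 and 0.0545) and without the filter (0.0647 and 0.0578). The part of cell composition in these differences was not tested.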

How the results depend on the processing

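Of 763 values of single genes under alternatives other than leaving out a mouse, 649 were rated unchanged (a call kept its side of the threshold, and no call changed sign), 44 lost and 21 gained a call, 28 moved and 21 were rated as changed in sign. Most of the latter were called in the main fit and had an uncalled value of the other sign, often near 0, under the alternative. Crb3 and F11r in BALB/c over 2M to 4M were called under the alternative only (adjusted p = 0.0221 and 0.0105), and Pllp had no test. Changes of sign at any size numbered 24 on the scale of all 11 epithelial genes, 28 without Krt19 and 10 on leaving out a mouse. With 11 genes those rated as changed were Cldn10 at 4M (0.056), Pllp (-0.075), Crb3 (-0.32) and F11r (-0.35) in BALB/c over 2M to 4M, plus in the change with age Crb3 (0.042), Tjp1 (0.049), Cldn10 (0.21), Magi1 (0.14) and Grhl1 (0.11). Without Krt19 they were Crb3 (0.0087) and Cldn10 (0.075) at 4M, Ocln (0.12), Cldn3 (0.037) and Cldn8 (0.028) at 6M, and in the change with age Crb3 (0.066), Tjp1 (0.066), Cldn10 (0.23), Magi1 (0.16), Grhl1 (0.14), Grhl2 (0.0087) and Klf5 (0.016). Panel genes lower and higher with 11 genes, with the share of all genes in brackets, were 31 and 9 at 2M (37.9% and 14.5%), 8 and 13 at 4M (5.48% and 33.1%), and 15 and 11 at 6M (9.63% and 39.9%). Over 2M to 4M they were 34 and 2 in BALB/c (47.4% and 3.37%), with 1 lower in NOD.H-2b (0.833%). Over 4M to 6M in BALB/c they were 0 and 7 (0.343% and 20.3%), and in the change with age 2 and 12 (0.769% and 34.9%). Without Krt19 they were 8 and 14 at 4M (5.57% and 35%) and 8 and 24 at 6M (6.38% and 55.1%). Over 2M to 4M they were 6 and 2 in BALB/c (15.8% and 4.43%), with 1 lower in NOD.H-2b (0.625%). Over 4M to 6M in BALB/c 5 were higher (5.96%), and in the change with age they were 2 and 18 (0.874% and 42.5%). Krt19, a gene of few counts, thus moved this scale.

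The panel counts from here on are given without the share of all genes called in the same fit. They show only how these counts vary with the setting. Without the filter the counts were 3 higher at 4M, 2 and 15 over 2M to 4M in BALB/c, 25 lower in NOD.H-2b, and 6 and 1 in BALB/c over 4M to 6M with 2 lower in NOD.H-2b. In a fit of all 18 mice they were 0 and 1 over 2M to 4M in BALB/c, 25 lower in NOD.H-2b, and 2 lower in BALB/c over 4M to 6M with 11 and 1 in NOD.H-2b. For that last step DESeq2's Wald test gave 4 lower in BALB/c with 2 and 1 in NOD.H-2b. With a replicate block, the counts in NOD.H-2b were 1 and 0 over 2M to 4M and 6 and 1 over 4M to 6M, and Ocln and Cldn3 (2M to 4M) and Cldn10 (4M) lost and Crb3 (4M to 6M, adjusted p = 0.0415) gained a call. It changed no other call of a single gene. The numbers do not pair the mice, since correlations of same-numbered mice ran from -0.45 to 0.47.

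Leaving out 1 mouse gave, for lower and higher panel genes, 11 to 17 and 16 to 20 at 2M, 21 to 30 and 3 to 5 at 4M, 33 to 37 and 5 to 8 at 6M, 0 to 2 and 3 to 9 over 2M to 4M in BALB/c, 3 to 17 and 1 in NOD.H-2b, 0 to 3 and 0 in BALB/c over 4M to 6M, 0 to 2 and 0 in NOD.H-2b, and 24 to 36 and 0 to 1 in the change with age. Cldn4 is limited by its counts in BALB/c. The causes were not tested.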
